A study of Mus musculus with 69 samples.

Results

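Nphs1, Podxl, Wt1, Synpo, Ptpro and Magi2 are genes of the podocyte, the epithelial cell that covers the capillaries of the glomerulus. They were taken by symbol from a table of read counts of mouse kidney RNA, where they are 6 of 24411 genes. All 6 passed the low-count filter (at least 2 counts over all libraries), which left 21175 genes for testing. The table holds 69 libraries, 48 of thio-biotinylated pulldown RNA and 21 of total kidney RNA.

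Podocytes send out interlocking foot processes, and the gaps between them are bridged by the slit diaphragm, the last layer of the glomerular filter. Nephrin, the product of Nphs1, spans this gap, and Magi2 encodes a scaffold that binds nephrin from the inside and is also made by neurons. Podxl encodes podocalyxin, a charged sialomucin of the apical surface that is also present on vascular endothelium, and Ptpro encodes a receptor tyrosine phosphatase of the same surface. Synpo encodes synaptopodin, which binds actin in foot processes and in dendritic spines. Wt1 encodes a zinc finger transcription factor that podocytes need to keep their identity.

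All mice carried a floxed uracil phosphoribosyltransferase transgene (UPRT f/+) at the Rosa26 locus, received 430 mg/kg of 4-thiouracil (4-TU), and were dissected 4 hours later. The enzyme was switched on by Hoxb7Cre, which is active in the collecting duct, or by Atp6v1b1Cre (spelled Atp6b1v1 in the labels), which is active in intercalated cells. Both are tubular drivers, so the comparisons ask how transcripts of cells outside the Cre domain are represented in tagged RNA. Control mice gave 10 Hoxb7Cre pulldowns (6 female, 4 male), 11 Atp6v1b1Cre pulldowns (4 female, 7 male) and 21 total RNA libraries (10 of Hoxb7Cre and 11 of Atp6v1b1Cre mice, 10 female and 11 male). Controls were 3 or 5.5 months old. The injured mice were 5.5 months old. In the ischemic model (iAKI) both renal pedicles were clamped for 10 minutes and RNA was labelled 24 hours later, which gave 7 Hoxb7Cre pulldowns (3 female, 4 male) and 6 Atp6v1b1Cre pulldowns (3 female, 3 male). In the volume-depleted model (vAKI) water and food were withheld for 72 hours, which gave 7 pulldowns of each driver (4 female and 3 male in Hoxb7Cre, 3 female and 4 male in Atp6v1b1Cre). Tagged RNA was pulled down from whole kidney extract, without isolation of cells. The labels do not say that each library is another mouse, and control pulldowns and total RNA may come from the same kidneys. The reported tests took all libraries as independent. P-values therefore measure the spread between these libraries, which may be partly technical.

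Library totals ran from 12618062 to 30305464 counts, with a median of 20868430. Levels are given in CPM, counts scaled to a common TMM-normalized library size. Library numbers in the labels fall into 3 series of 36, 21 and 12 libraries, called A, B and C here, and all injured Hoxb7Cre libraries are in series A. Markers of the collecting duct (Aqp2, Aqp3, Tfcp2l1, Foxi1, Slc26a4, Atp6v0d2) summed to a median of 1913 CPM in total RNA, 5236 CPM in control Hoxb7Cre pulldowns and 4369 CPM in control Atp6v1b1Cre pulldowns. The sum does not describe each marker, since Aqp2 was lower in Atp6v1b1Cre pulldowns than in total RNA. One library stood apart. The female vAKI pulldown of Atp6v1b1Cre mice numbered 5, the smallest of the series, held less of all 6 podocyte genes than any other library of its group, and less of 5 of them (all but Synpo) than any other pulldown. Its values were 0.826 CPM of Nphs1 (11 counts) and 29.2 CPM of Podxl (389 counts). It does not enter the comparisons of controls or of males.

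The 6 genes lie on 5 chromosomes of GRCm38. Nphs1 is at chr7:30458315-30487223 (plus strand), Magi2 at chr5:19227036-20704792 (plus), Podxl at chr6:31519488-31563981 (minus), Ptpro at chr6:137252319-137463233 (plus) and Wt1 at chr2:105126529-105173616 (plus). Magi2 is by far the longest, with a span of 1477757 bases, and Nphs1 the shortest, with 28909 bases. Their exons sum to 11348 and 6620 bases. An antisense gene, Nphs1os, overlaps Nphs1 over 3428 bases, exons included, and strand was not kept in the libraries as far as stated. Nphs1os itself held at most 3 counts in any library, against at least 11 of Nphs1.

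The RefSeq promoter windows of Nphs1, Magi2 and Ptpro are shown because Nphs1 and Magi2 ended at opposite extremes of the comparison of pulldown with total RNA, with Ptpro between them. Each covers 250 bases upstream of the transcript start in GRCm38.p6, on the plus strand, and the capitals mark matches to GTGGGNG on either strand, a core of the motif that Wt1 is known to bind. Their positions are chr7:30459808-30460057 for Nphs1, chr5:19226796-19227045 for the first start of Magi2 and chr6:137252049-137252298 for Ptpro.
Nphs1: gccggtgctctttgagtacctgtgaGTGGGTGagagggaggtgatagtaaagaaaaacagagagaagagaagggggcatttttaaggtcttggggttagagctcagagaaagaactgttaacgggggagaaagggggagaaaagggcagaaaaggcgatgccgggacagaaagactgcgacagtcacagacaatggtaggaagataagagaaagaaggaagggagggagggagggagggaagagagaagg
Magi2: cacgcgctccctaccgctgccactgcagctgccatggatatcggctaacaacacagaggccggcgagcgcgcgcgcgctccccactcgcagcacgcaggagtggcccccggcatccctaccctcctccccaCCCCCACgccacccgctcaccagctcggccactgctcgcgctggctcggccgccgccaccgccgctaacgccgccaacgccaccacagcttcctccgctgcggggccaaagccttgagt
Ptpro: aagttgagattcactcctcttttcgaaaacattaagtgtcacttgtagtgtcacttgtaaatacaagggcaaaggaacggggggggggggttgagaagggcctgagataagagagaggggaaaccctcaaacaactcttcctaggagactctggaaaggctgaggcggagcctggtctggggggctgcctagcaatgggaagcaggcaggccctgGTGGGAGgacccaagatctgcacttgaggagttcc
Each window held 1 match, on the reverse strand in Magi2, and 28.1% of 32851 RefSeq promoter windows of this length held at least 1. The window at a second start of Magi2 (chr5:19907268-19907517) held none. GC content was 50.8% in the Nphs1 window and 53.6% in the Ptpro window, and higher at the first Magi2 start.

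In total kidney RNA, Podxl was the most abundant of the 6 genes per length, at 46.6 ± 9.78 CPM per kb of exon (SD, n = 21). It was followed by Synpo at 6.46 ± 1.35 CPM per kb, Nphs1 at 5.37 ± 1.69, Ptpro at 2.31 ± 0.565, Wt1 at 1.54 ± 0.437 and Magi2 at 1.38 ± 0.332 (SD, n = 21 for each). Podxl lay above Synpo in all 21 libraries with no overlap of their ranges, and Nphs1 lay above Ptpro in all 21. Synpo exceeded Nphs1 in 19 libraries and Wt1 exceeded Magi2 in 14, so the order of these neighbours varied between libraries. In both pulldown pools Nphs1 moved from the third to the last place. The order in the control Hoxb7Cre pool was Podxl at 22.4 ± 4.14 CPM per kb, Synpo at 3.83 ± 0.595, Magi2 at 1.67 ± 0.423, Ptpro at 1.11 ± 0.346, Wt1 at 1.08 ± 0.366 and Nphs1 at 0.754 ± 0.331 (SD, n = 10). In Atp6v1b1Cre controls the order was the same. Podxl stood clear of Synpo in both pools, and Synpo stood clear of Magi2 in Hoxb7Cre but not in Atp6v1b1Cre. The ranges of Magi2, Ptpro, Wt1 and Nphs1 overlapped from each to the next in both pools.

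**Figure D1:**
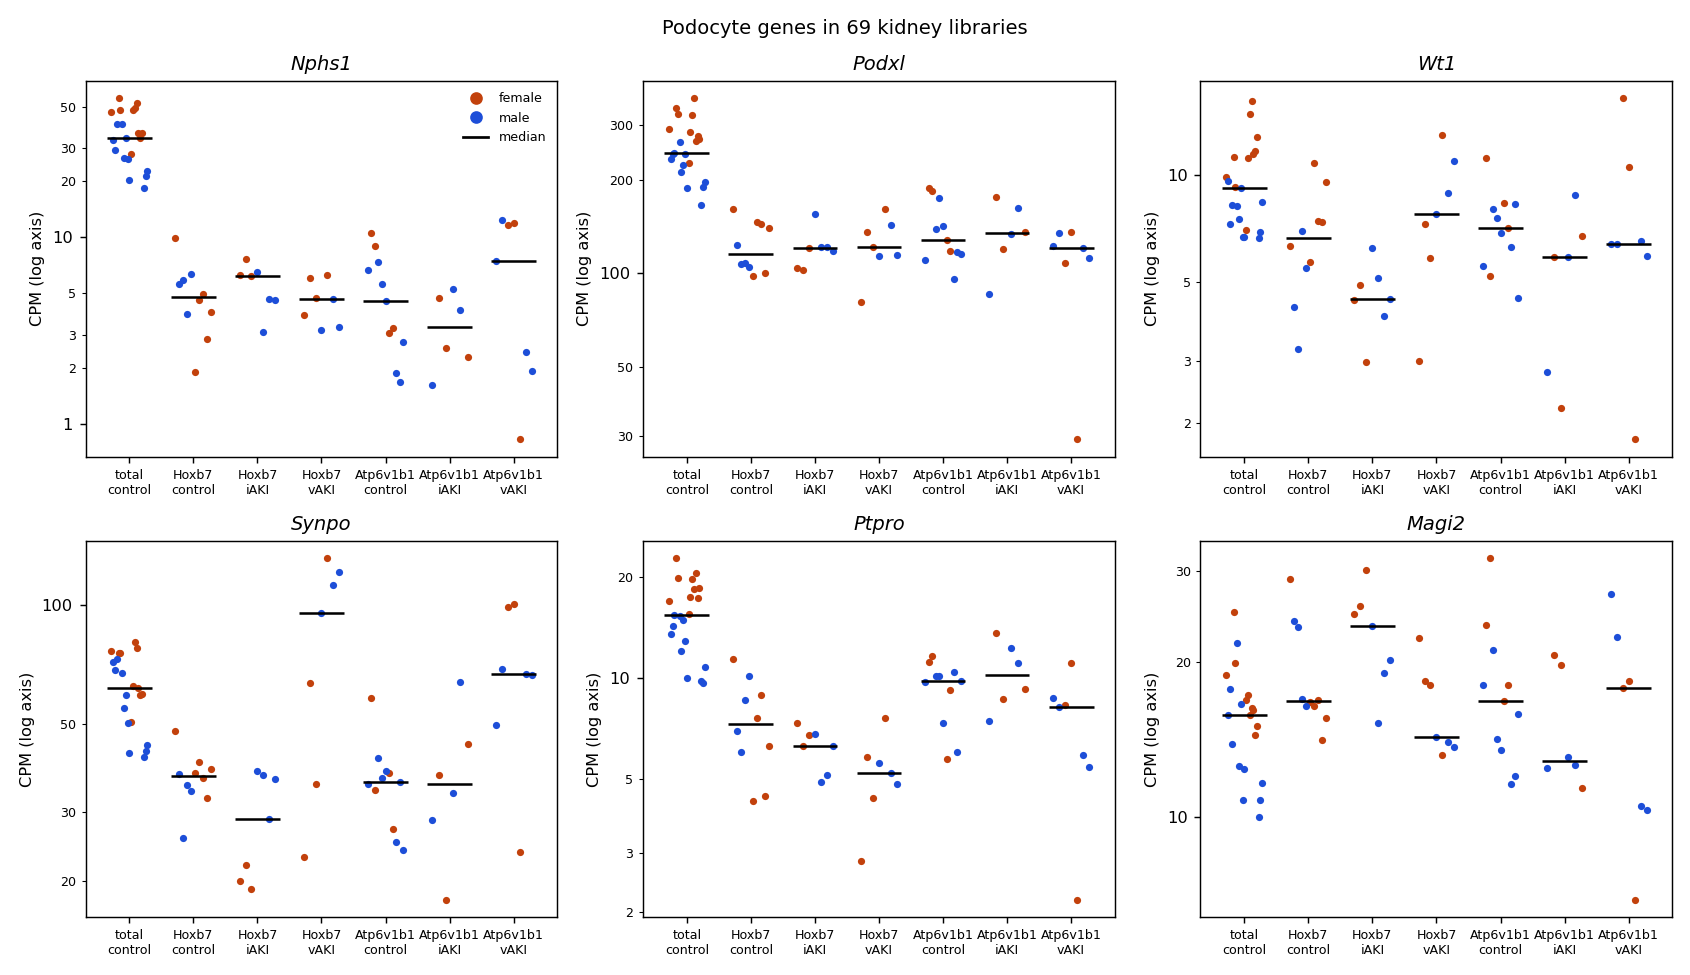
CPM of each podocyte gene (log axis) in the 69 libraries, by group on the x axis, with females in orange, males in blue and the group median as a black line. Nphs1 in total RNA (18.3 to 55.7 CPM) lies above every pulldown, Magi2 overlaps between all groups, and Synpo is highest in vAKI pulldowns.

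Of the 6 genes, 5 were lower in the control Hoxb7Cre pool than in total RNA and 1, Magi2, was higher (edgeR's quasi-likelihood test, adjusted p under 0.05 with sex as a covariate). Over all genes tested, 31.1% were called lower and 35.6% higher in this comparison. The Atp6v1b1Cre pool had the same 5 genes lower, where 29.4% of all genes were called lower. The pulldowns and the total RNA are both from control kidneys, so these differences do not measure transcripts per podocyte. Their dependence on synthesis during labelling, on RNA turnover or on transcription of these genes inside the Cre domain was not tested. The median log2 fold change of the 6 genes was -0.88 in Hoxb7Cre and -0.68 in Atp6v1b1Cre, against 0.11 over all genes in each.

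Nphs1 was the most reduced. It ranged from 18.3 to 55.7 CPM in total RNA (median 34.2), from 1.91 to 9.86 CPM in Hoxb7Cre controls (median 4.78) and from 1.67 to 10.6 CPM in Atp6v1b1Cre controls (median 4.55). Every one of the 21 control pulldowns lay below every total RNA library. The log2 fold change was -2.79 (SE 0.24, adjusted p = 4.29e-14) in Hoxb7Cre and -2.69 (SE 0.23, adjusted p = 3.50e-14) in Atp6v1b1Cre, a reduction of 6.94-fold and 6.45-fold. Mean levels in the pools were 14.0% and 14.4% of that in total RNA. The reduction was present within each library series, at -2.45, -3.02 and -3.36 in series A, B and C in Hoxb7Cre and at -2.29, -2.93 and -3.33 in Atp6v1b1Cre.

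Magi2, whose product sits beside nephrin at the slit diaphragm, was not reduced. It ranged from 10.02 to 24.98 CPM in total RNA (median 15.8), from 14.1 to 29.03 CPM in Hoxb7Cre controls and from 11.6 to 31.8 CPM in Atp6v1b1Cre controls (median 16.8 in both). The ranges overlapped, with 1 pulldown of each driver above every total RNA library and none below. The log2 fold change was 0.30 (SE 0.13, adjusted p = 0.0379) in Hoxb7Cre and 0.25 (SE 0.12, adjusted p = 0.0743) in Atp6v1b1Cre. The Hoxb7Cre call was fragile. It was at 0.53 in series A (adjusted p = 0.00165) but -0.03 in series C (adjusted p = 0.936), and it was lost in 8 of 42 fits that left out 1 library.

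Podxl and Ptpro, both of the apical surface, fell to about the same degree in the Hoxb7Cre pool. Podxl ranged from 166 to 366 CPM in total RNA (median 244), from 98.1 to 161 CPM in Hoxb7Cre controls (median 116) and from 95.8 to 189 CPM in Atp6v1b1Cre controls (median 128). All 10 Hoxb7Cre pulldowns and 8 of 11 Atp6v1b1Cre pulldowns lay below the lowest total RNA library. Its log2 fold change was -1.05 (SE 0.10, adjusted p = 1.36e-13) in Hoxb7Cre and -0.80 (SE 0.09, adjusted p = 1.03e-10) in Atp6v1b1Cre. Ptpro ranged from 9.65 to 22.8 CPM in total RNA (median 15.4), from 4.30 to 11.4 CPM in Hoxb7Cre controls (median 7.28) and from 5.71 to 11.6 CPM in Atp6v1b1Cre controls (median 9.79). Its log2 fold change was -1.02 (SE 0.14, adjusted p = 9.70e-09) in Hoxb7Cre and -0.66 (SE 0.13, adjusted p = 2.66e-05) in Atp6v1b1Cre. The latter was -0.46 with an adjusted p of 0.0554 in series C alone.

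Synpo, of the actin cytoskeleton, lies at chr18:60593973-60660142 (minus strand). It ranged from 41.2 to 80.4 CPM in total RNA (median 61.4). It ranged from 25.8 to 47.97 CPM in Hoxb7Cre controls (median 36.9) and from 24.04 to 58.2 CPM in Atp6v1b1Cre controls (median 35.7), and 19 of the 21 control pulldowns lay below every total RNA library, 9 of Hoxb7Cre and 10 of Atp6v1b1Cre. The log2 fold change was -0.74 (SE 0.11, adjusted p = 5.50e-08) and -0.71 (SE 0.10, adjusted p = 6.98e-08). Wt1, the transcription factor, was the least reduced of the 5. It ranged from 6.66 to 16.1 CPM in total RNA (median 9.19), from 3.25 to 10.8 CPM in Hoxb7Cre controls (median 6.64) and from 4.49 to 11.1 CPM in Atp6v1b1Cre controls (median 7.09). Its ranges overlapped in both pools. The log2 fold change of Wt1 was -0.54 (SE 0.13, adjusted p = 2.54e-04) in Hoxb7Cre and -0.29 (SE 0.12, adjusted p = 0.0368) in Atp6v1b1Cre. The Atp6v1b1Cre call for Wt1 was lost in each series alone (log2 fold change of -0.25, -0.25 and -0.38) and in 9 of 42 fits without 1 library.

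Ratios of genes within a library, which do not depend on scaling, were also compared. The ratio of each of the other 5 genes to Nphs1 was compared between control pulldowns and total RNA, 10 ratios in all. Nphs1 was itself the most reduced of the 6, so that these ratios restate its reduction. Magi2 per Nphs1 was 8.76-fold higher in Hoxb7Cre pulldowns and 8.51-fold higher in Atp6v1b1Cre pulldowns. Wt1 per Nphs1 was 5.03-fold and 5.76-fold higher, Synpo 4.35-fold and 4.39-fold, Podxl 3.51-fold and 4.08-fold, and Ptpro 3.45-fold and 4.55-fold. For each of the 10 ratios every pulldown lay above every total RNA library. The two-sided permutation p was 1.00e-05 for each, the smallest that 100000 resamples can give, against a threshold of 0.005 for 10 ratios. With Podxl as the reference in place of Nphs1, the groups overlapped for 7 of the 8 ratios of the remaining genes. Magi2 was then 2.49-fold and 2.08-fold higher (permutation p = 1.00e-05 for both), with 10 of 10 and 10 of 11 pulldowns above every total RNA library. Wt1 per Podxl was 1.43-fold and 1.41-fold higher (permutation p = 3.60e-04 and 9.00e-05). Synpo per Podxl was 1.24-fold higher in Hoxb7Cre (permutation p = 1.70e-04) and 1.07-fold higher in Atp6v1b1Cre (permutation p = 0.186). Ptpro per Podxl was 1.02-fold lower in Hoxb7Cre (permutation p = 0.78) and 1.11-fold higher in Atp6v1b1Cre (permutation p = 0.108).

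4-TU enters RNA in the place of uracil, so the position of the 6 genes was set beside base composition and length. Over 14230 genes with both values and a median of at least 10 counts in control libraries, the median log2 fold change of Hoxb7Cre pulldown against total RNA went from -0.41 in the lowest decile of uracil share to 0.47 in the highest. Over deciles of summed exon length it went from -1.11 to 0.77. Nphs1, with 21.2% uracil, was in decile 2 by uracil share and in decile 8 by exon length. It was lower than all but 0.915% of genes of similar exon length in both pools. Magi2, with 21.1% uracil, was in decile 2 by uracil share, where 72.8% of genes were lower than it in Hoxb7Cre. It was in the top decile by exon length, where 27.6% were lower. Podxl, Synpo, Ptpro and Wt1 lay below the median of genes of similar exon length, with 11.1%, 10.8%, 9.64% and 19.0% of those genes lower in Hoxb7Cre. The part of base composition or length in the differences was not tested.

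**Figure D2:**
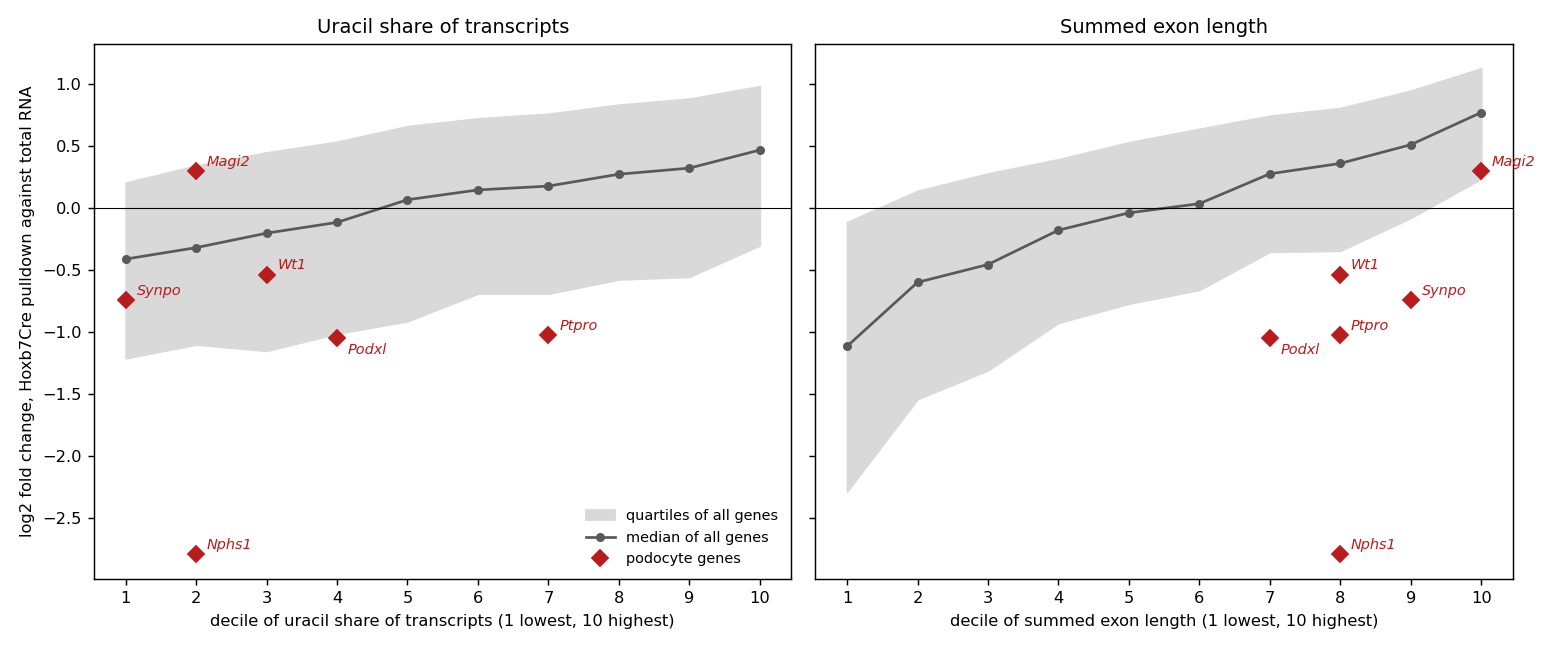
Log2 fold change of Hoxb7Cre control pulldown against total RNA (y axis) by deciles of uracil share (left) and of summed exon length (right), with the median of all genes as a line, quartiles as a grey band and the 6 podocyte genes as red diamonds. The median of all genes rises from -1.11 to 0.77 with exon length, and all 6 podocyte genes lie below the line in that panel.

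The other podocyte genes were also called in both directions. Of 43 further genes of the podocyte lists, 24 were lower and 15 higher in the Hoxb7Cre pool, where 31.1% and 35.6% of all genes were. In the Atp6v1b1Cre pool 24 were lower and 14 higher, against 29.4% and 34.4% of all genes. The medians of these 43 log2 fold changes were -0.28 and -0.29, against 0.11 over all genes in each. Cdkn1c, a cell cycle inhibitor of mature podocytes, fell by 2.73 and 2.27 on the log2 scale, and Tcf21, a podocyte transcription factor, fell by 2.29 and 1.00. Against these, Cd2ap, an adaptor that binds nephrin, was higher by 0.90 and 0.86, and Tjp1, a junction scaffold present in most epithelia, was higher by 1.09 and 1.08. The apical surface list had 5 of 6 genes lower in Hoxb7Cre and 6 of 6 in Atp6v1b1Cre, and the slit diaphragm list had 7 of 12 higher in both, counting the 6 genes where they belong to a list. Dach1, a transcription factor also present in tubules, was higher by 1.13 and 1.41.

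Lists named for other cell types could be set beside the podocyte genes, though a listed gene can also be made in other cells. The endothelial list (Pecam1, Kdr, Flt1, Emcn, Cdh5, Tie1, Ehd3, Plvap) had 8 of 8 genes lower in Hoxb7Cre and 7 of 8 in Atp6v1b1Cre. The medians were -1.18 and -1.04. In Hoxb7Cre its genes ran from -3.89 (Plvap) to -0.70 (Flt1). In Atp6v1b1Cre they ran from -3.78 (Plvap) to -0.10 (Ehd3, not called). Which of them are selective for glomerular capillaries was not tested. The proximal tubule list had 5 of 5 genes lower in both, with medians of -2.87 and -2.88. Summed levels in the pools were 33.6% and 38.2% of total RNA for the endothelial list and 18.5% and 17.9% for the proximal tubule list, against 50.2% and 54.0% for the 6 podocyte genes, of which Podxl makes up most. Further lists lay on both sides of these values. The mesangial and juxtaglomerular list was at 167.3% and 129.3% of total RNA. Of its 5 genes, 1 was higher and 3 lower in Hoxb7Cre, and 1 higher and 2 lower in Atp6v1b1Cre. Ren1, which is on this list, had 0 counts in every control library and could not be called. The higher gene was Gata3 in both pools, at 2.44 and 1.54. Des and Itga8 were lower in both and Pdgfrb in Hoxb7Cre, so the sum does not describe the list. The mesothelial list was at 125.6% and 49.3%. In Hoxb7Cre 3 of its 5 genes were higher (Krt19, Upk1b and Lrrn4) and 2 lower, and in Atp6v1b1Cre 4 of 5 were lower. The fat list was at 27.7% and 25.8% and the thick ascending limb list at 19.5% and 18.5%. The collecting duct list stood at 272% and 214%, with 6 of 6 genes higher in Hoxb7Cre. In Atp6v1b1Cre 4 of 6 were higher, while Aqp2 was lower (-1.10) and Aqp3 was not called. Nphs1, at 14.0% and 14.4%, thus stood near the proximal tubule list, while Podxl, Wt1, Synpo and Ptpro were at 47.9% to 70.3% in Hoxb7Cre.

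**Figure D3:**
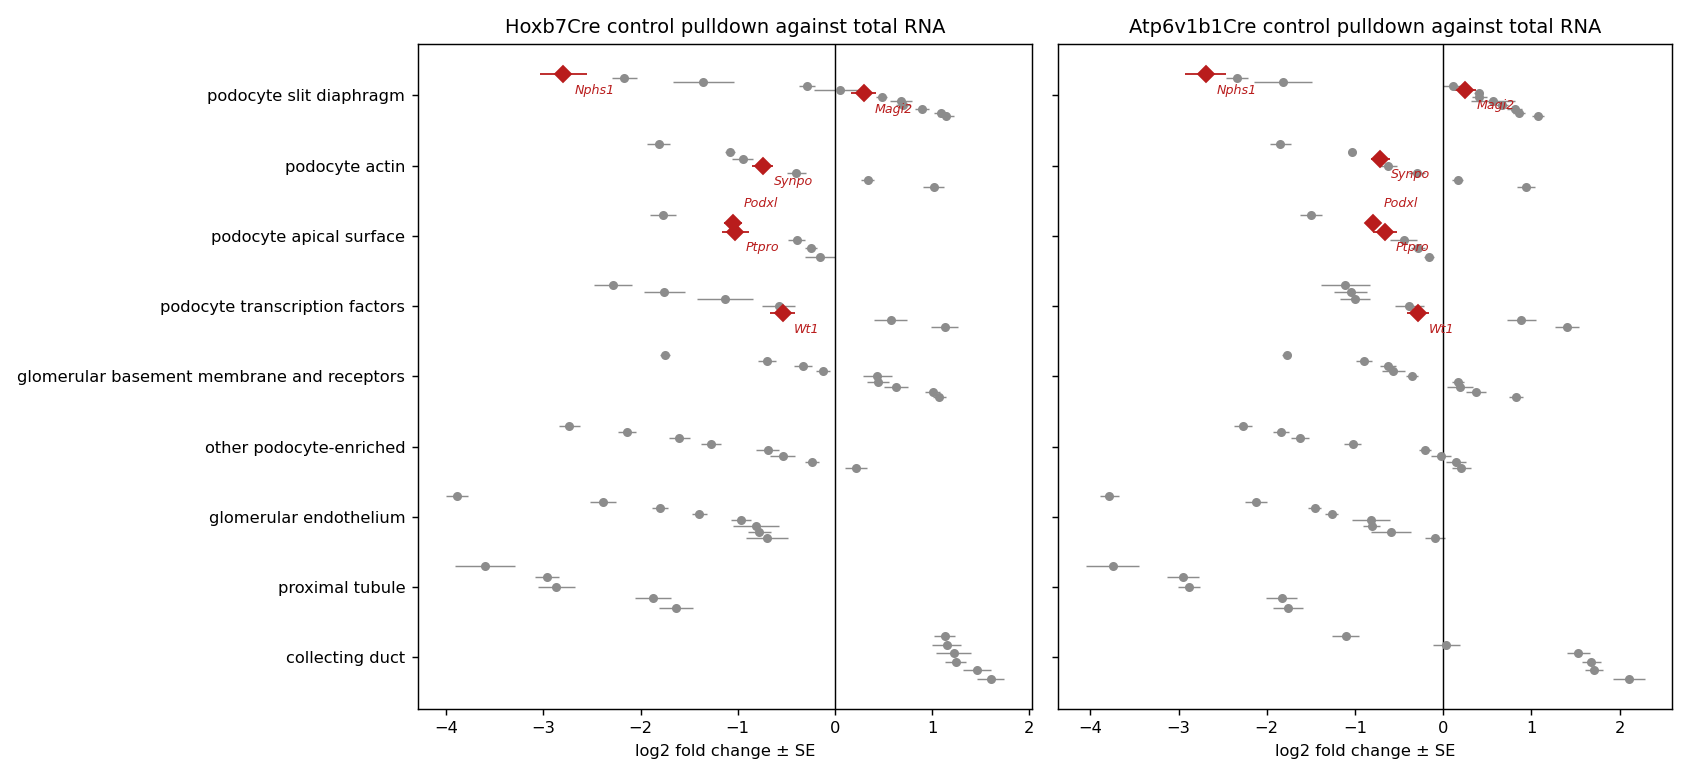
Log2 fold change ± SE of control pulldown against total RNA (x axis) for each gene of the lists on the y axis, in Hoxb7Cre (left) and Atp6v1b1Cre (right), with the 6 podocyte genes as red diamonds and all other listed genes as grey points. Nphs1 lies at -2.79 and -2.69 and Magi2 at 0.30 and 0.25 within 1 list, while endothelial and proximal tubule genes lie left of 0.

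The control pulldown pools were then compared with each other. None of the 6 genes differed between Atp6v1b1Cre and Hoxb7Cre controls in edgeR, where 9.93% of all genes did, and 2 had an unadjusted p under 0.05 (none was called by DESeq2, also with 2 at an unadjusted p under 0.05). These were Podxl at a log2 difference of 0.25 (SE 0.10, adjusted p = 0.143) and Ptpro at 0.37 (SE 0.15, adjusted p = 0.140), both toward higher levels in Atp6v1b1Cre. Nphs1 differed by 0.10 (SE 0.25), Wt1 by 0.25 (SE 0.14), Synpo by 0.03 (SE 0.12) and Magi2 by -0.05 (SE 0.15). Ptpro passed without Hoxb7Cre control 5 (adjusted p = 0.0472) and without Atp6v1b1Cre control 12 (adjusted p = 0.0467), and in series C alone (1.24, adjusted p = 0.0311). In series C the Hoxb7Cre controls were all female. Its females were 5.5 and its males 3 months old, so sex and age cannot be told apart there. Podxl passed with library series as a covariate (0.28, adjusted p = 0.0288) and in mice of 5.5 months alone (0.34, adjusted p = 0.0496). Both passed with replicate number as a block (adjusted p = 0.0114 for Podxl and 0.0487 for Ptpro). Libraries of different drivers with equal numbers are of different mice, so this block is not a pairing.

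Sex was compared within total RNA, with genotype as a covariate. Of the 6 genes, 5 were higher in females, where 15.1% of all genes were, and 0 were lower, where 14.4% were. Ptpro ranged from 15.6 to 22.8 CPM in 10 females (median 18.6) and from 9.65 to 15.4 CPM in 11 males (median 12.9), with no overlap. The log2 difference of Ptpro was 0.60 (SE 0.09, adjusted p = 2.10e-05). Nphs1 had medians of 47.3 CPM in females and 26.5 CPM in males, a log2 difference of 0.64 (SE 0.14, adjusted p = 0.00116). Podxl, with medians of 289 and 223 CPM, differed by 0.48 (SE 0.09, adjusted p = 1.10e-04), and Wt1, with medians of 11.3 and 7.51 CPM, by 0.56 (SE 0.11, adjusted p = 4.16e-04). Magi2, with medians of 16.6 and 12.6 CPM, differed by 0.36 (SE 0.13, adjusted p = 0.0332), but by 0.28 with an adjusted p of 0.161 among mice of 5.5 months. Synpo, with medians of 68.9 and 54.8 CPM, differed by 0.29 (SE 0.11, adjusted p = 0.0520). The median over the 6 genes was 0.52, against 0.03 over all genes. Age and sex were partly joined, since in total RNA the 3-month-old Hoxb7Cre mice were female and the 3-month-old Atp6v1b1Cre mice were male.

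Injury was compared in one fit of 22 male pulldowns from mice of 5.5 months. After ischemia, none of the 6 genes was called in either pool, where 6.13% of all genes were called in Hoxb7Cre and 8.51% in Atp6v1b1Cre. In edgeR 1 gene had an unadjusted p under 0.05 in Hoxb7Cre and 0 in Atp6v1b1Cre, and DESeq2 called none in either, with 1 and 0 at that unadjusted level. The largest estimates were -0.44 (SE 0.20, adjusted p = 0.216) for Ptpro in Hoxb7Cre and -0.74 (SE 0.46, adjusted p = 0.339) for Nphs1 in Atp6v1b1Cre. Magi2 was at 12.44, 13.09 and 12.64 CPM in the 3 Atp6v1b1Cre iAKI males and at 18.05, 21.06, 14.16 and 13.5 CPM in the 4 controls, without overlap. Its log2 fold change was -0.40 (SE 0.26, adjusted p = 0.378), and within series A alone it passed at -0.63 (adjusted p = 0.03). Here and elsewhere, lack of overlap is given without the share of all genes that separate likewise. With groups of 3 or 4 libraries it is description only. The difference between the drivers in the response to ischemia passed for none of the 6 (0 at an unadjusted p under 0.05 in edgeR and in DESeq2), where 7.79% of all genes passed.

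After volume depletion Synpo rose in both pools. In Hoxb7Cre it was at 37.3, 25.8, 35.1 and 33.8 CPM in the 4 male controls and at 95.4, 112 and 121 CPM in the 3 vAKI males. The 4 iAKI males were at 37.98, 37.01, 28.7 and 36.3 CPM. The vAKI libraries lay above all others, and their mean of 109.6 ± 13.0 CPM (SD, n = 3) was also above the highest total RNA library, at 80.4 CPM. The log2 fold change of Synpo was 1.74 (SE 0.20, adjusted p = 1.33e-06) against control and 1.64 (SE 0.20, adjusted p = 2.88e-06) against iAKI. In Atp6v1b1Cre, Synpo was at 35.2, 41.0, 36.5 and 38.01 CPM in the male controls and at 49.7, 68.7, 66.9 and 66.4 CPM in the vAKI males, again with no overlap. The 3 iAKI males were at 28.5, 33.4 and 63.6 CPM, the last of which lay among the vAKI values. The log2 fold change was 0.76 (SE 0.19, adjusted p = 0.00958) against control, where 8.11% of all genes were called higher. That call was lost in series A alone (0.64, adjusted p = 0.0520) and with replicate number as a block, which joins different mice (0.88, adjusted p = 0.0507). It was also lost for males in the fit of 43 pulldowns of both sexes (0.75, adjusted p = 0.184), where Synpo in Hoxb7Cre males still passed (1.74, adjusted p = 6.72e-04). Against iAKI it was 0.61 (SE 0.20, adjusted p = 0.0281), where 15.0% were called higher. The latter was lost in 5 of 22 fits without 1 library, namely without Atp6v1b1Cre iAKI 1 or 4 or vAKI 2, 6 or 7 (adjusted p = 0.209, 0.156, 0.0629, 0.0583 and 0.0564).

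Wt1 and Ptpro moved in the Hoxb7Cre pool in opposite directions. Over all genes, 17.9% were called higher and 17.6% lower after volume depletion in this pool. Wt1 was at 4.26, 3.25, 6.96 and 5.48 CPM in the male controls and at 7.75, 8.87 and 10.9 CPM in the vAKI males, without overlap, with a log2 fold change of 0.89 (SE 0.28, adjusted p = 0.0155). Against iAKI males, at 6.23, 5.12, 4.02 and 4.47 CPM, it was higher by 0.88 (SE 0.28, adjusted p = 0.0170), where 16.4% of all genes were called higher. The call against control was lost without control 3 (adjusted p = 0.0584) and without vAKI 7 (adjusted p = 0.0824), and that against iAKI without iAKI 6 (adjusted p = 0.0516) and without vAKI 7 (adjusted p = 0.0916). Ptpro was at 6.95, 6.01, 8.59 and 10.1 CPM in the controls and at 5.59, 5.21 and 4.81 CPM in the vAKI males, again without overlap, a log2 fold change of -0.60 (SE 0.22, adjusted p = 0.0369). That call was lost in 5 of 22 fits, without vAKI 4, 6 or 7 or control 4 or 5 (adjusted p = 0.0539, 0.0898, 0.119, 0.0746 and 0.134), and in series A alone (-0.30, adjusted p = 0.307). For males in the fit of 43 pulldowns of both sexes, neither Wt1 (0.89, adjusted p = 0.113) nor Ptpro (-0.60, adjusted p = 0.198) passed.

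Nphs1, Podxl and Magi2 did not pass after volume depletion in either pool. Magi2 was at 23.98, 23.4, 16.9 and 16.4 CPM in Hoxb7Cre control males and at 14.3, 14.0 and 13.7 CPM after vAKI, without overlap (log2 fold change -0.52, SE 0.26, adjusted p = 0.129). Within series A alone, which holds 2 of those controls, Magi2 had a log2 fold change of -0.75 (adjusted p = 0.00126). Against iAKI, Magi2 passed with library series as a covariate, at -0.49 in Hoxb7Cre (adjusted p = 0.0405) and at 0.48 in Atp6v1b1Cre (adjusted p = 0.0485). Nphs1 was at 5.65, 5.91, 3.90 and 6.33 CPM in Hoxb7Cre control males and at 3.17, 4.67 and 3.29 CPM after vAKI (log2 fold change -0.55, SE 0.46, adjusted p = 0.392). In Atp6v1b1Cre vAKI males Nphs1 split between 7.502 and 12.4 CPM in the 2 libraries of series A and 2.43 and 1.91 CPM in the 2 of series B. Magi2 split the same way there, with 27.2 and 22.3 CPM in series A and 10.5 and 10.3 CPM in series B. The control males of that pool were at 6.70 and 7.41 CPM of Nphs1 in series A and 5.60 and 4.55 CPM in series B. Podxl was at 113.4 to 143.5 CPM after vAKI and at 104.5 to 123.5 CPM in controls in Hoxb7Cre (log2 fold change 0.17, SE 0.17, adjusted p = 0.484).

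**Figure D4:**
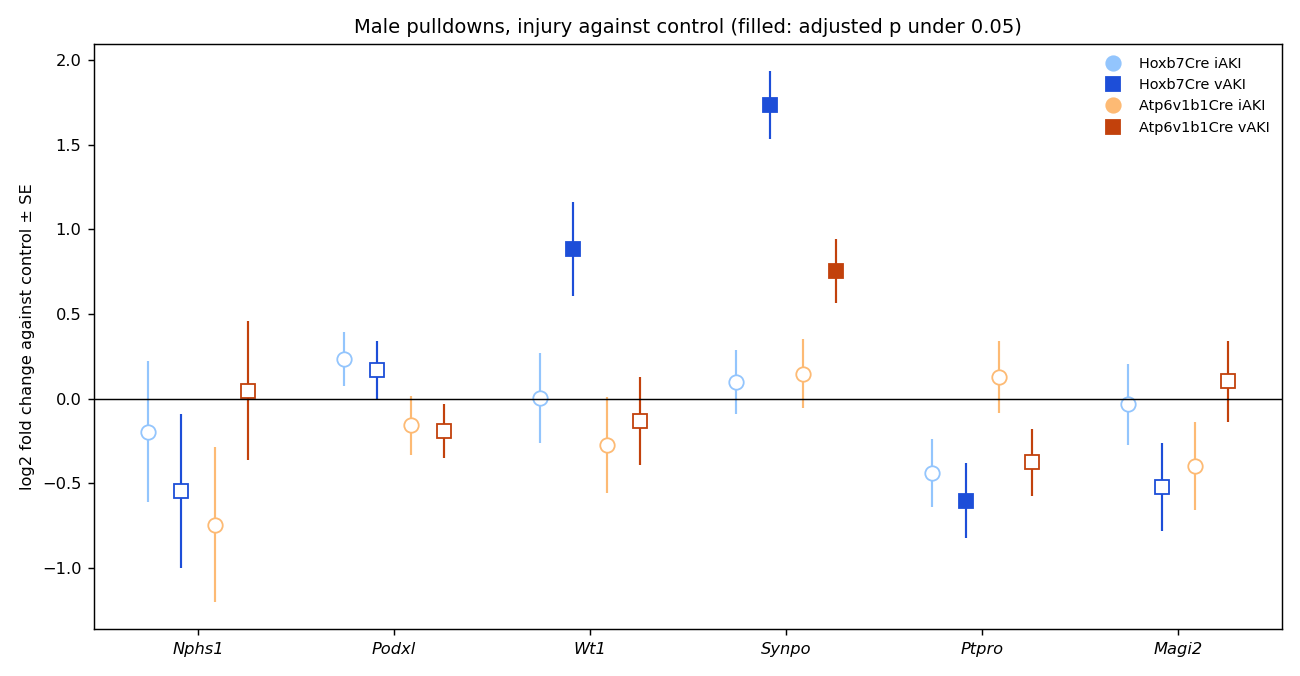
Log2 fold change ± SE against control (y axis) of the 6 podocyte genes in male pulldowns, with iAKI as circles and vAKI as squares, Hoxb7Cre in blue and Atp6v1b1Cre in orange, filled where the adjusted p was under 0.05. Synpo is at 1.74 and 0.76 after vAKI and Wt1 at 0.89 in Hoxb7Cre, while all iAKI symbols are open.

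Other podocyte genes changed in both directions in the Hoxb7Cre pool after volume depletion. Of the 49 genes of the podocyte lists, 11 were higher and 10 lower, where 17.9% and 17.6% of all genes were, and without the 6 genes 9 of 43 were higher and 9 lower. The median over the 49 genes was 0.04, against 0.00 over all genes. Of the 7 podocyte transcription factors listed, 6 were higher, Wt1 included, with Foxc2 at a log2 fold change of 2.67 (adjusted p = 5.95e-05), and Lmx1b did not pass. The median of this list was 1.18. Of the slit diaphragm list none of 12 was higher and 3 were lower (Cd2ap, Nck2 and Plce1). Of the glomerular basement membrane list 5 of 9 were lower, among them Col4a3 at -1.36 and Col4a4 at -1.73, collagen chains of that membrane. Cd2ap, Nck2, Plce1, Col4a3 and Col4a4 were each higher in Hoxb7Cre control pulldowns than in total RNA, while Foxc2 and Lmx1b were lower. Which cells gave these changes after volume depletion was not tested. In Atp6v1b1Cre, 3 of all 49 podocyte genes were higher, among them Dach1 at 0.68 (adjusted p = 0.0379) and Synpo, and 0 were lower, where 8.11% of all genes were called higher and 6.47% lower.

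Markers of other cells moved in the same libraries. Over all genes, 17.9% were called higher and 17.6% lower after vAKI in Hoxb7Cre, and 8.11% and 6.47% in Atp6v1b1Cre. In Hoxb7Cre males the 8 endothelial genes summed to 143 to 271 CPM in controls and 316 to 460 CPM after vAKI, and 5 of 8 were called higher, led by Cdh5 (VE-cadherin) at 1.85. The collecting duct list summed to 5477 to 7819 CPM in controls and 3607 to 4130 CPM after vAKI, with 4 of 6 genes lower. In Atp6v1b1Cre males the endothelial sum was 264 to 328 CPM in controls and 218 to 357 CPM after vAKI, with 0 of 8 genes higher and 1, Emcn, lower. The proximal tubule list did not separate the groups in Hoxb7Cre (1604 to 2655 CPM in controls, 1934 to 2181 CPM after vAKI). The thick ascending limb list summed to 1329 to 2321 CPM in Hoxb7Cre control males and 761.9 to 850.1 CPM after vAKI, with 2 of 2 genes lower. The mesothelial list, at 36.91 to 38.17 CPM in controls, was at 16.61 to 21.42 CPM after vAKI, with 3 of 5 genes lower. The mesangial and juxtaglomerular list summed to 151.7 to 230.7 CPM in controls and 87.38 to 115.5 CPM after vAKI, while 2 of its 5 genes were called higher and 1 lower. The fat list was at 92.35 to 203.2 CPM in controls and 68.43 to 83.54 CPM after vAKI, with 4 of 5 genes lower. The part of these cells in the changes of Synpo, Wt1 and Ptpro was not tested.

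The response of Synpo to volume depletion differed between the drivers, by -0.98 on the log2 scale as Atp6v1b1Cre minus Hoxb7Cre (SE 0.28, adjusted p = 0.0433). It was the 1 of 6 genes to pass, where 4.20% of all genes did. The call was lost in 12 of 22 fits without 1 library, with log2 differences of -1.06 to -0.88 over all 22, and in the fit of both sexes, where the difference was -0.36 (adjusted p = 0.734). Among females the difference had the other sign, at 0.23, and at 0.65 without the female library that stood apart. Wt1 differed by -1.02 (SE 0.38, adjusted p = 0.137), with an unadjusted p of 0.0138. With library series as a covariate 3 genes passed. They were Synpo at -1.13 (adjusted p = 0.00463), Wt1 at -1.24 (adjusted p = 0.0206) and Magi2 at 0.83 (adjusted p = 0.0344). The same 3 passed in series A alone (-1.18, -1.38 and 1.08, adjusted p = 0.00626, 0.0321 and 0.00642). The 4.20% is of the reported fit, so these 2 counts have no share of all genes beside them.

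Females were not used in that fit. Synpo was at 23.1, 63.3, 35.3 and 131 CPM in the 4 female Hoxb7Cre vAKI pulldowns, so that only 2 of 4 lay above the 4 female controls of the same age, at 47.97, 37.6, 32.5 and 38.4 CPM. In Atp6v1b1Cre it was at 98.4, 100 and 23.6 CPM after vAKI, the last in the library that stood apart, against 58.2, 33.9, 37.5 and 27.1 CPM in controls. The difference between the sexes in the response of Synpo to volume depletion in Hoxb7Cre, female minus male, was -1.05 (SE 0.52, adjusted p = 0.158). It was -1.69 (adjusted p = 0.00615) without vAKI 5, the female at 131 CPM. After ischemia the 3 Hoxb7Cre females were at 20.0, 21.9 and 19.1 CPM of Synpo, below all female controls, with a log2 fold change among females of -0.93 (SE 0.48, adjusted p = 0.247). The difference between the sexes passed for none of the 6 genes, for either injury or driver. Over all genes that difference passed for 10.5% after ischemia and 16.0% after vAKI in Hoxb7Cre. In Atp6v1b1Cre it passed for 0% after iAKI and 0% after vAKI, where edgeR had 676 and 1756 genes at an unadjusted p under 0.05. Of the 6 genes, Synpo for volume depletion in Hoxb7Cre was the single one at an unadjusted p under 0.05 in these 4 comparisons, and DESeq2 was not run for them. Within the females of the same fit of 43 pulldowns, Podxl was lower after volume depletion in Atp6v1b1Cre by -0.75 (SE 0.28, adjusted p = 0.0473), where 26.4% of all genes were called, and it was the single one of the 6 genes to pass in females. The 3 vAKI females include the library at 29.2 CPM of Podxl that stood apart, and in a fit of females without it the log2 fold change was -0.34 (adjusted p = 0.432).

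The 6 genes varied together in total RNA and less so in pulldowns. Over 21 total RNA libraries Pearson's r of log2 CPM between pairs of the 6 ranged from 0.45 to 0.94, with a median of 0.80. The highest was Nphs1 with Podxl and the lowest Wt1 with Magi2. Over 48 pulldowns it ranged from -0.22 (Synpo with Magi2) to 0.74 (Wt1 with Synpo), with a median of 0.37. These 48 include the female library that stood apart, which can weigh on r. By rank (Spearman's rho), Podxl with Magi2 was at 0.17 where r was 0.41, and Nphs1 with Podxl at 0.42 where r was 0.58. Podxl with Synpo went the other way, with a rho of 0.50 where r was 0.34. Nphs1 with Synpo went from 0.92 to 0.27, while Nphs1 with Magi2 was at 0.81 and 0.73. These libraries differ in series, depth, sex and age and, in the pulldowns, in treatment and driver, so the coefficients are descriptions. In total RNA, 5 of the 6 genes were higher in females.

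**Figure D5:**
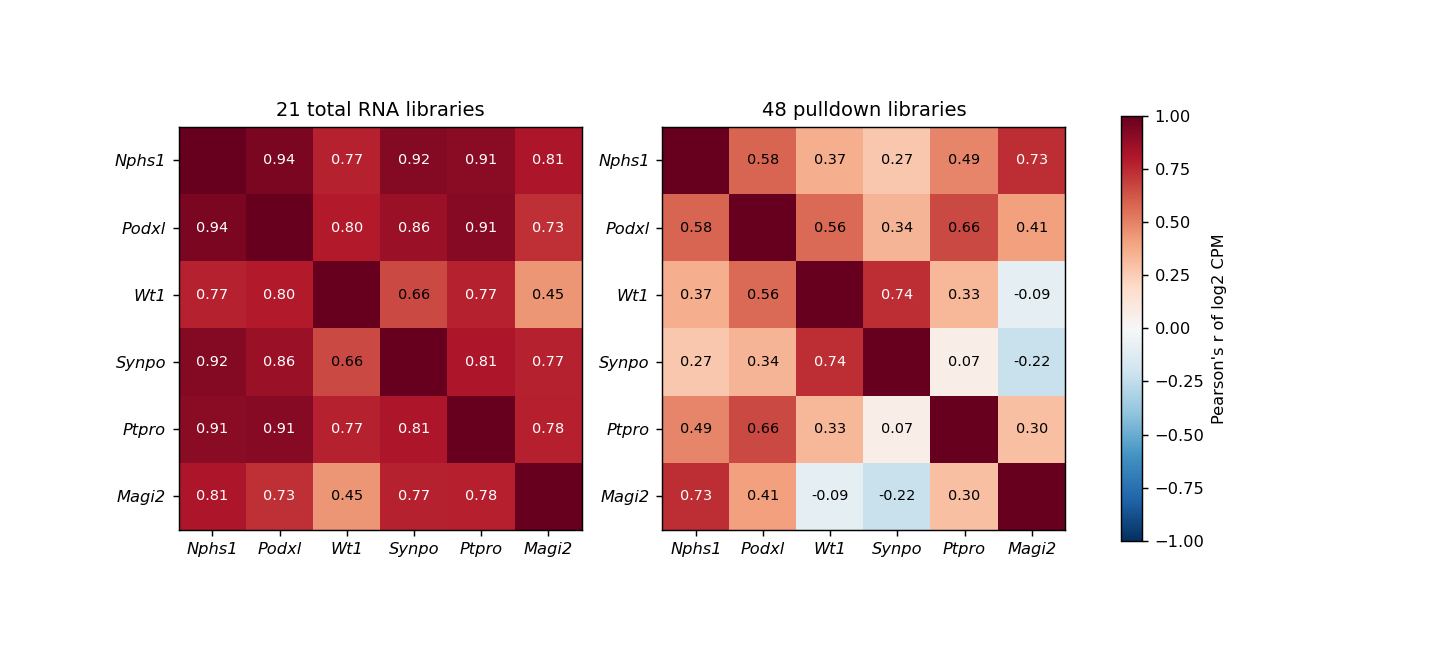
Pearson's r of log2 CPM for each pair of the 6 podocyte genes over 21 total RNA libraries (left) and 48 pulldowns (right), with red for positive and blue for negative values. The pairs lie between 0.45 and 0.94 in total RNA and between -0.22 and 0.74 in pulldowns.

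The genes most like each of the 6 were taken from all genes with a median of at least 10 counts, 14580 in total RNA and 14904 in pulldowns. In total RNA, Nphs1 was most like Podxl (r = 0.94), Synpo (0.92) and Acss1 (0.91), and Podxl was most like Nphs1, Sema3g (0.93) and Adgrf5 (0.92). Synpo was most like Ddn (0.93), Nphs1 and St3gal1 (0.91), and Ptpro like Apoe (0.93), Acnat1 (0.92) and Podxl (0.91). Magi2 was most like Agmo (0.92), Slc7a9 (0.91) and Ces2g (0.90), and Wt1 like Tm4sf1 (0.86), Anxa3 (0.85) and Gas7 (0.85). In pulldowns, with the library that stood apart included, the nearest genes changed. Synpo was most like Pde2a (0.90), Robo4 (0.90) and Nos3 (0.90), the latter 2 known from endothelium, and Podxl was most like Sema3g (0.86), Pecam1 (0.85), an endothelial adhesion molecule, and Myom2 (0.76). Nphs1 was most like Clic5 (0.83), an apical podocyte protein, Myom2 (0.74) and Magi2 (0.73). Magi2 was most like Ptprd (0.87), Enpp2 (0.86) and Dock9 (0.85), Wt1 like Sncaip (0.80), Fgd5 (0.77) and Stac (0.76), and Ptpro like Myom2 (0.77), Shisa3 (0.75) and Ntng2 (0.74).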

How the data were processed

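The data are counts of reads per gene in 69 libraries of mouse kidney RNA. The authors deposited these counts without normalization. Per the labels and the methods, adaptors were trimmed with CASAVA 1.8.2 and read ends with Trimmomatic 0.36, reads were aligned to mm10 with STAR 2.5.3a, and genes were counted with HTSeq 0.6.1p2 under default settings. The annotation behind the symbols was not given in the sources used here. HTSeq leaves out reads that align to several places, and the TruSeq kit is not stated to mark strand.

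Genes with at least 2 counts over all libraries were tested with TMM normalization and the quasi-likelihood test of edgeR 4.0.16 in R 4.3.3, with Benjamini-Hochberg adjustment over all of them and a threshold of 0.05. Controls of both sexes entered one fit with sex as a covariate, males of 5.5 months another, and the 43 pulldowns of that age a fit of sex, driver and treatment. CPM use the TMM size over all libraries, and log2 CPM a prior count of 2. Positions and exon lengths are from GENCODE vM21 (GRCm38), matched by symbol for 95.6% of genes. Named genes are the 6 members, genes of cell type lists and the 3 genes most like each member. Members and lists were chosen with earlier results of these data known. The statistics were tested on simulated counts, and DESeq2 1.42.0, other filters, series of library numbers, the replicate block and each library left out were alternatives. Some genes of the lists are not reported here by name.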

Additional observations from a re-analysis of the deposited data

Results flagged for a closer look

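Podxl was at 155 CPM in the male Hoxb7Cre iAKI pulldown numbered 4, and the next highest of the 7 libraries of that group was at 121 CPM. Podxl was at 29.2 CPM in the female Atp6v1b1Cre vAKI pulldown numbered 5, where the next lowest of 7 was at 108.3 CPM. Each was marked because its gap to the nearest library, relative to the range of the group, was above Dixon's 95% critical value. Of 30 combinations of gene and group with 4 to 10 libraries, 2 were marked, and chance marks about 1 in 20. The second library was also the lowest of its group for the other 5 genes, with 12618062 counts in all.

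The response of Synpo to volume depletion was marked because it differed between the drivers, by -0.98 on the log2 scale as Atp6v1b1Cre minus Hoxb7Cre (edgeR's quasi-likelihood test, adjusted p = 0.0433). Synpo was higher in all 3 Hoxb7Cre and all 4 Atp6v1b1Cre vAKI males than in any control male of the same driver.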

How the results depend on the processing

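Over 12 counts of podocyte genes past a threshold, 100 of 134 alternatives stayed within 1.5 times the main count and 34 did not. Leaving out 1 library kept 285 counts and moved 16. Alternatives within a library series, or without the low female library, were chosen after seeing the data.

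Asking also for a log2 fold change of at least 1 left 3 genes in Hoxb7Cre control pulldown against total RNA, 1 in Atp6v1b1Cre, 1 after volume depletion in Hoxb7Cre, 0 in Atp6v1b1Cre, 1 against ischemia, 0 between drivers and 0 between sexes. Series C alone gave 3 genes for Atp6v1b1Cre against total RNA and 1 between the control pools. Between these pools, series as a covariate gave 1 (Podxl, adjusted p = 0.0288), 5.5 months alone 1 (Podxl, adjusted p = 0.0496), and single libraries left out 0 to 1. After volume depletion in Hoxb7Cre, females alone gave 0, both sexes 1 with or without the low library, and libraries left out 1 to 3. In Atp6v1b1Cre, females alone gave 0 with or without the low library and series A gave 0 (Synpo 0.64, adjusted p = 0.0520). Series A gave 1 after ischemia in Atp6v1b1Cre (Magi2, -0.63). Volume depletion against ischemia, counted over both pools and so out of 12, gave 3 in the reported fit. It gave 5 with series as a covariate (Wt1, Synpo and Magi2 in Hoxb7Cre, Synpo and Magi2 in Atp6v1b1Cre), 0 in females, 6 in series A (the same 3 and Nphs1, Synpo and Magi2) and 6 in both sexes without the low library (the same 3 and Nphs1, Wt1 and Synpo). The difference between drivers gave 3 with series as a covariate and 3 in series A, 0 in females, both sexes (each with or without the low library) and 25 males, and 0 to 1 with libraries left out. The difference between sexes gave 0 to 1. Shares of all genes called are given for the reported fits only, so counts in the alternatives have none beside them. The cause was not tested.

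In 3 cases an estimate reversed. Magi2 in Hoxb7Cre against total RNA was -0.033 in series C, and the driver difference of Synpo was 0.23 in females and 0.65 in females without the low library. Magi2 in Hoxb7Cre lost its call without Hoxb7Cre control 1, 2 or 3 (0.21, 0.23 and 0.23, adjusted p = 0.16, 0.126 and 0.114) and without total RNA 10, 11, 17, 19 or 20 (adjusted p = 0.0516, 0.0678, 0.0509, 0.0528 and 0.0515). Wt1 in Atp6v1b1Cre lost it without total RNA 2, 9, 14 or 15 (adjusted p = 0.0539, 0.0519, 0.0516 and 0.0544) and without Atp6v1b1Cre control 6, 8, 12, 13 or 16 (adjusted p = 0.0572, 0.109, 0.0583, 0.0788 and 0.0766). The driver difference of Synpo lost it without Hoxb7Cre iAKI 4 or 7 (adjusted p = 0.0527 and 0.0536), vAKI 6 or 7 (0.0958 and 0.124) or control 2, 3 or 5 (0.0501, 0.0966 and 0.0569), and without Atp6v1b1Cre vAKI 1 or 2 (0.08 and 0.0511) or control 9, 10 or 11 (0.0864, 0.0562 and 0.0725).

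Libraries with equal replicate numbers were compared across groups, also groups of different drivers. This cannot show whether a control pulldown and a total RNA library come from the same kidney. In order of library number, control pulldowns and total RNA follow the same sequence of genotype, sex and age. Pairing along that order was not tested. Same-numbered libraries had a median correlation of deviations of -0.064 over 26 control pairs, 11 of them over 0.1, and of 0.005 over 20 male pairs, 5 of them over 0.1. Across drivers or treatments, equal numbers are of different mice, so a block on them is not a pairing. With replicate as a block term, 2 genes passed between the control pools (Podxl and Ptpro, adjusted p = 0.0114 and 0.0487), 1 after volume depletion in Hoxb7Cre (Synpo, 1.75), 0 in Atp6v1b1Cre (Synpo 0.88, adjusted p = 0.0507) and 0 between drivers (Synpo -0.87, adjusted p = 0.36).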

Other observations

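After ischemia, genes of the podocyte lists outside the 6 were called in both directions in males. In Hoxb7Cre, Tjp1 (log2 fold change 0.51, adjusted p = 0.0102) and Pla2r1, a podocyte surface receptor (1.68, adjusted p = 0.00905), were higher. Among the lower ones were Itga3, an integrin subunit that binds laminin (-0.63, adjusted p = 0.00866), Npnt, a basement membrane protein (-0.84, adjusted p = 0.00727), and Arhgap24 (-0.47, adjusted p = 0.017). Tjp1, Itga3, Npnt and Arhgap24 were higher in Hoxb7Cre control pulldowns than in total RNA (1.09, 1.075, 0.63 and 0.34). Pla2r1 was lower there (-0.54). Which cells gave these changes after ischemia was not tested. In Atp6v1b1Cre, Robo2, a receptor of podocytes, was lower (-1.34, adjusted p = 0.00215) and Pdpn, of the apical surface, was higher (1.14, adjusted p = 0.0383). Over the 49 genes of the podocyte lists, 2 were higher and 4 lower in Hoxb7Cre, where 6.13% of all genes were called, and 2 higher and 2 lower in Atp6v1b1Cre, where 8.51% were.

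In total RNA, 23 of the 49 podocyte genes were higher and 4 lower in females than in males, where 15.1% and 14.4% of all genes were, with a median log2 difference of 0.27 against 0.03 over all genes, and 3 of 8 endothelial genes were higher.

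Wt1os, an antisense gene that lies 18 bases from Wt1, held up to 43 counts in a library. Ren1, a marker of juxtaglomerular cells, held 0 counts in every control library. Whether this reflects its expression or how reads were assigned to the symbol was not tested, so it is not evidence of absence.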
